A study of Homo sapiens with 18 samples.

Results

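The MYC binding sites described here lie on the short arm of chromosome 6, in the major histocompatibility complex (MHC) and the rest of band 6p21 that follows it. A site was taken when a peak in any of the 9 deposited MYC peak lists had its summit between 28.48 and 45 Mb of chromosome 6 (hg19), and overlapping peaks of different lists were merged into 1 region when they shared at least 1 bp. This gave 579 of the 43222 merged regions on chromosomes 1 to 22 and X, made from 2063 of 150870 peaks. The regions were described in 5 segments: an extended segment on the telomeric side (28.48 to 29.60 Mb, 30 regions), class I (29.60 to 31.40 Mb, 83 regions), class III (31.40 to 32.20 Mb, 51 regions), class II (32.20 to 33.40 Mb, 50 regions) and 6p21 beyond the MHC (above 33.45 Mb, 364 regions). 1 further region fell between the class II boundary and 33.45 Mb. At the edges, the last region before the window was chr6:28457661-28457855 (1 library, fold 3.61), the first inside was chr6:28510628-28511068 (4 libraries, highest fold 6.58), the last inside was chr6:44935275-44935565 (1 library, fold 5.19) and the next beyond was chr6:45116471-45116636 (1 library, fold 5.16).

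The cells were MCF10A.PM, a derivative of the immortalised human breast epithelial line MCF10A that carried an ectopic MYC construct (pBABE-hygro-MYC) and an ectopic PI3KH1047R construct, so every group shared both. Each group also carried a tet-ON hairpin, either the scrambled control (shSCR) or 1 of 2 independent hairpins against the histone methyltransferase G9a (shG9a_1 and shG9a_4), and all received 2 µg/mL doxycycline for 72 h. Chromatin was precipitated with the MYC antibody N262 in 3 biological replicates of each hairpin, with an input library for each, and the question of the design was how loss of G9a affects MYC binding. All groups, the control included, carried the added MYC, so the sites are those of cells with ectopic MYC.

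MYC is a basic helix-loop-helix leucine zipper transcription factor that binds DNA with its partner MAX, most tightly at the E-box CACGTG, and it occupies the promoters of a large share of active genes. G9a, encoded by EHMT2, adds methyl groups to lysine 9 of histone H3, a mark of silenced chromatin. The MHC holds the class I heavy chain genes, whose products present peptides from inside the cell on nearly all cell types, the class II genes, whose products present peptides on antigen-presenting cells, and between them the gene-dense class III segment with complement, tumour necrosis factor and many housekeeping genes; EHMT2 itself lies in class III. Beyond the MHC, 6p21 holds, among others, the cell cycle inhibitor CDKN1A, the kinase PIM1 and the chromatin protein HMGA1.

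No annotation or sequence of hg19 was used here, so regions are given by position and were not assigned to genes, exons or introns. The presence of the E-box in promoters of genes of this part of chromosome 6 can be shown separately, on another build and without placing any peak. The genes were taken in blocks between named genes. The block borders were not matched to the segment borders or to the window, so a block only approximates the segment whose name it carries. In RefSeq promoters of GRCh38.p14 (250 bases before to 50 bases after each start), CACGTG, which reads the same on both strands, stood in 0 of 18 promoters of the extended block (TRIM27 to the gene before GABBR1), 3 of 63 of the class I block (GABBR1 to MICA), 5 of 78 of the class III block (MICB to NOTCH4), 1 of 45 of the class II block (BTNL2 to KIFC1) and 22 of 197 beyond (PHF1 to RUNX2). The share over all protein-coding promoters in the table was 8.34% (of 22199), against 11.2% in the block from PHF1 to RUNX2 and 0% to 6.41% in the other blocks. The class I genes with the box were ABCF1, GNL1 and TUBB, and the class III genes were ATF6B, C2, EHMT2 and NEU1. A pair of these promoters is printed 5′ to 3′ on the strand of the gene, with the E-box in capitals: EHMT2, since it encodes the protein targeted by both hairpins (chr6:31897649-31897948, minus strand, box 30 bases before the start), and ABCF1, a gene for a translation-associated ATP-binding cassette protein, as the class I example (chr6:30571192-30571491, plus strand, box 79 bases before the start).
EHMT2: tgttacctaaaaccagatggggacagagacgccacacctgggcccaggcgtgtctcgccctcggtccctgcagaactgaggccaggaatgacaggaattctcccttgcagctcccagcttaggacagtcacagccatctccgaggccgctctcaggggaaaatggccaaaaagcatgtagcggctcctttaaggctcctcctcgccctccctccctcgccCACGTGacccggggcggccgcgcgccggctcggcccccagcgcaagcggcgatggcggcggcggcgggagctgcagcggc
ABCF1: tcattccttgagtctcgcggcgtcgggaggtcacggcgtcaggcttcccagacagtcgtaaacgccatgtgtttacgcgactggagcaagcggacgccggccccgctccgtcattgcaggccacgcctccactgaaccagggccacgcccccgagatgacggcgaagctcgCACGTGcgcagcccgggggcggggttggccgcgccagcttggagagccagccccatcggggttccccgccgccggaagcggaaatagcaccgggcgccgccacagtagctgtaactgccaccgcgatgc
Each printed promoter holds 1 box. A match describes these letters only, and whether MYC peaks lay on them was not tested.

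The lists differed greatly in length. The shSCR lists held 20118 to 34738 peaks on chromosomes 1 to 22 and X, 5 of the 6 shG9a lists held 11168 to 17454, and the list of shG9a_1 replicate 1 held 113. Sequencing depth is not in the files, but the lowest control background of each list, divided by its shortest peak, gave a relative depth of 0.926 to 1.04 in shSCR, 0.839 and 1.09 in shG9a_1 replicates 2 and 3, and 1.90, 1.05 and 2.65 in shG9a_4 replicates 1 to 3. For shG9a_1 replicate 1 the same estimate was 2.36, but it rested on a shortest peak of 51 bp, against 130 to 157 bp elsewhere. With the usual shortest peak of the shSCR lists in its place, the estimate was 0.806, the lowest of the 9. Its whole list was narrow, with a median width of 79 bp over all chromosomes, against 223 to 275 bp in the other lists. Which length applies was not tested, so the relative depth of shG9a_1 replicate 1 is not settled. The means of window peaks are given with and without this library.

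On average MYC sites were denser in the window than over all chromosomes, and of the 5 segments class III was the densest. The window held 35.0 regions per Mb over 16.5 Mb, against 12.1 on the rest of chromosome 6 and 14.7 over all chromosomes, and the median gap between neighbouring regions was 6.87 kb against 15.2 kb. Class III held 63.8 regions per Mb, class I 46.1, class II 41.7, 6p21 beyond the MHC 31.5 and the extended segment 26.7. In single libraries, class I, class III and class II each had more peaks per Mb than 6p21 beyond the MHC, and the extended segment had fewer, in all 8 libraries other than shG9a_1 replicate 1. Class III was the densest in 7 of the 8; in shG9a_4 replicate 1 it had 12.5 peaks per Mb, below class II (14.2) and class I (12.8). In class III the peak density was 41.25, 48.75 and 23.75 per Mb in shSCR replicates 1 to 3, 18.75 in both shG9a_1 replicates 2 and 3, and 12.5, 27.5 and 22.5 with shG9a_4. In the extended segment it was 19.6, 19.6 and 13.4 per Mb in shSCR, 5.35 and 4.46 in shG9a_1 replicates 2 and 3, and 6.24, 8.02 and 5.35 with shG9a_4. The lowest shSCR library lay above the highest shG9a library in the extended segment, whereas in class III shG9a_4 replicate 2 lay above shSCR replicate 3.

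**Figure D1:**
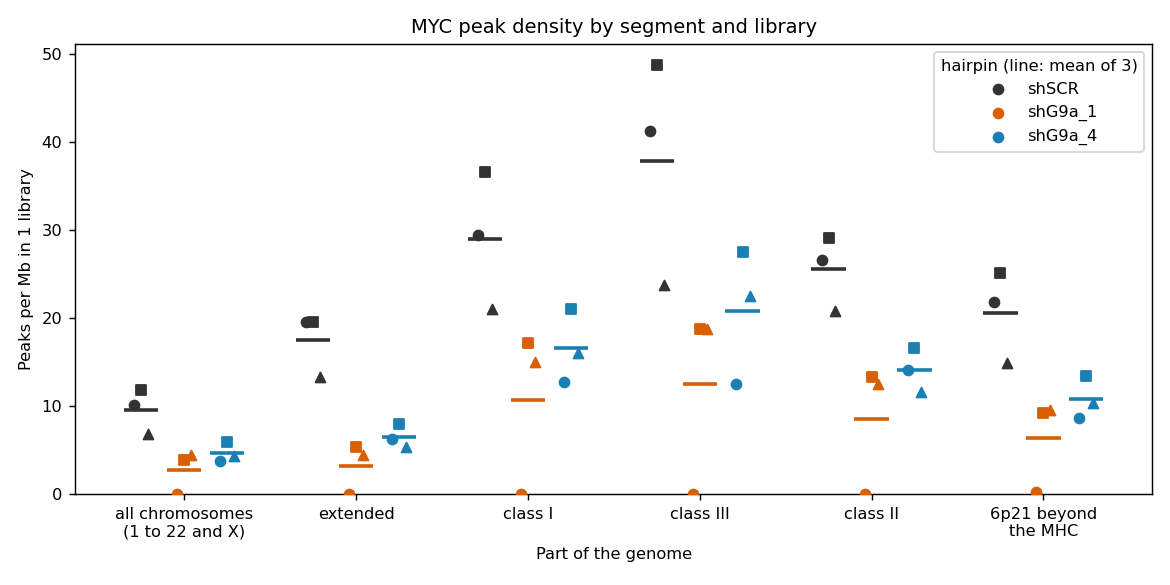
MYC peaks per Mb (vertical axis) in each library for all chromosomes and for the 5 segments (horizontal axis), with circles, squares and triangles for replicates 1, 2 and 3 and a line at the mean of each hairpin's 3 libraries. Class III is highest in shSCR, at 23.75 to 48.75 peaks per Mb, and shG9a_1 replicate 1 lies at or near 0 in every segment.

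Within the window the sites were unevenly spread. Some bins of 1 Mb fell below the 14.7 regions per Mb of all chromosomes. The fullest bins, beyond the MHC, passed the 63.8 regions per Mb of class III. In whole bins of 1 Mb the number of regions ran from 4 (39477797 to 40477796) to 67 (41477797 to 42477796), with 65 in 43477797 to 44477796 and 60 in 30477797 to 31477796, the main part of class I. The densest 100 kb of the window was in class I, at chr6:30654502-30752947, with 20 regions, 10 of them present in each shSCR list. The densest stretches elsewhere were chr6:33216234-33291351 in class II (19 regions), chr6:31739871-31831786 in class III (18), chr6:33520951-33601415 beyond the MHC (17) and chr6:28687575-28785044 in the extended segment (12). The longest stretch with no region was chr6:39902352-40874549, 972 kb beyond the MHC, and 0.794% of the 43199 gaps between regions over all chromosomes were at least as long. The next longest were chr6:28953678-29596420 (643 kb, 1.50% as long), which reaches nearly to the start of class I, and chr6:32223195-32787553 (564 kb, 1.79% as long) in class II. All but 1 of the 50 class II regions lay on the centromeric side of that gap, and the median gap of class II, 4.19 kb, was the shortest of the 5 segments.

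**Figure D2:**
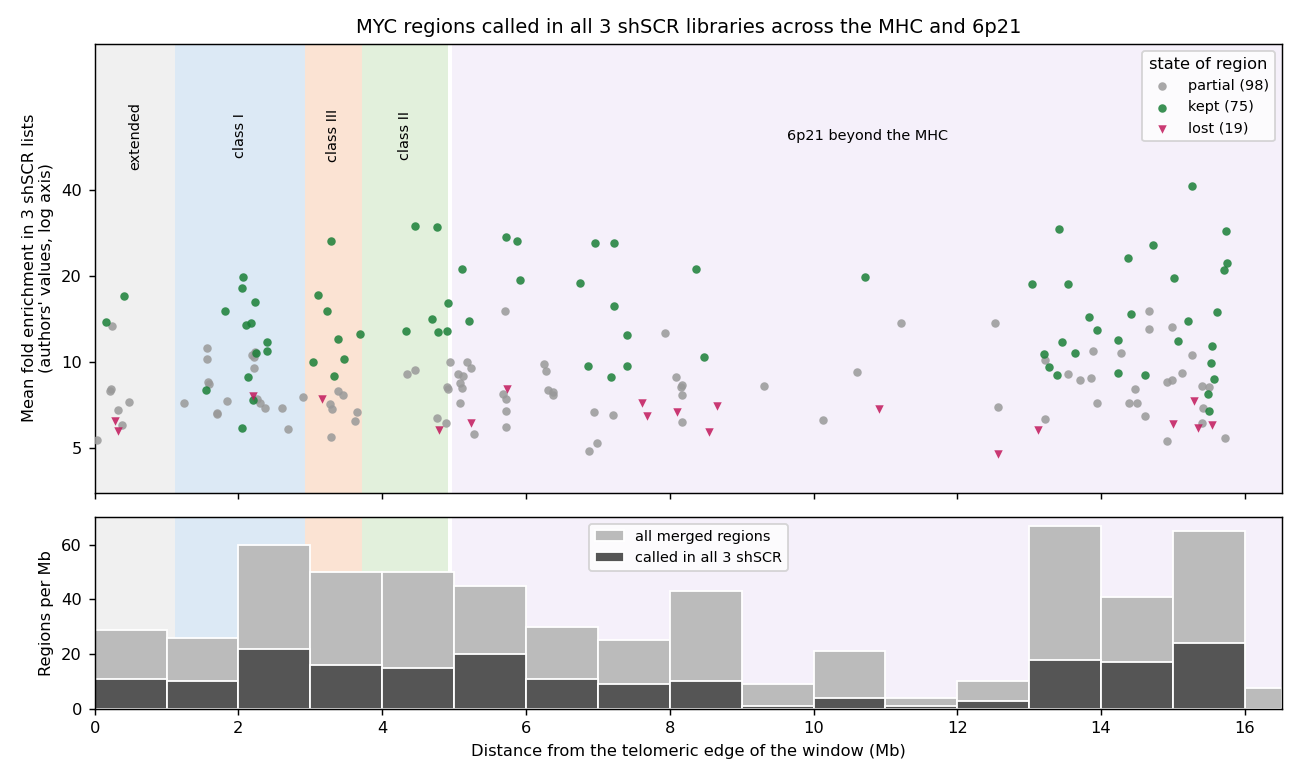
Upper panel: mean fold enrichment in the 3 shSCR lists (log axis) of each region called in all 3 shSCR libraries, against distance from the telomeric edge of the window in Mb, coloured by state (19 lost, 75 kept, 98 partial) over shaded segments. Lower panel: regions per Mb in bins of 1 Mb, all merged regions and those called in all 3 shSCR libraries, with low bins between 9 and 13 Mb and the highest bin, at 67, starting 13 Mb from the edge.

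Of the 579 regions, 192 were called in all 3 shSCR libraries (33.2%, against 32.9% of all merged regions), and 224 were called in a single library (38.7%, against 38.8%). These 192 reproducible regions made up 17.8 per Mb in class I (32 regions), 20 per Mb in class III (16), 11.7 per Mb in class II (14), 9.80 per Mb in the extended segment (11) and 10.2 per Mb beyond the MHC (118), against 4.83 per Mb over all chromosomes. Their median fold enrichment over background, the authors' value averaged over the shSCR lists, was 8.94, against 8.77 over all reproducible regions. Class II stood at 11.1, 6p21 beyond the MHC at 9.02, class I at 8.73, class III at 8.44 and the extended segment at 7.26. The reproducible class II regions had a median width of 741.5 bp, against 541 bp for those of the window and 367 bp for those of the extended segment. Over all its regions, reproducible or not, class II had the lowest median width of the 5 segments, 251 bp against 297 bp in the window. A merged width of at least 1 kb was found for 22 window regions (3.80%, against 4.19%).

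Many reproducible sites had a close neighbour. Another reproducible region lay within 10 kb of 88 of the 192 (45.8%), against 36.8% over all chromosomes. The share was 71.4% in class II, 62.5% in class I, 44.1% beyond the MHC, 25% in class III and 18.2% in the extended segment. Class III, with the most regions per Mb, thus had fewer of its reproducible regions beside a close neighbour than class I or class II had. Of the regions with such a neighbour 39.8% were kept under the hairpins, and of the rest 38.5%, against 35.7% and 37.6% over all chromosomes.

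Fewer peaks were called in the window with the G9a hairpins. The shSCR libraries had 395, 453 and 270 window peaks, the shG9a_1 libraries 3, 177 and 173, and the shG9a_4 libraries 158, 245 and 189. Every shG9a library lay below every shSCR library, with the nearest pair at 245 and 270. On average shSCR libraries had 373 ± 93.5 window peaks (SD, n = 3) and the hairpin libraries 157.5 ± 81.4 (SD, n = 6), 57.7% fewer (two-sided exact permutation test, p = 0.0238, the smallest that 84 splits allow). Without shG9a_1 replicate 1 the mean was 188 ± 33.5 (SD, n = 5), 49.4% lower (exact permutation p = 0.0357, again the smallest possible). Over all chromosomes the peak number was lower by 60.9% with all 6 libraries and by 53.2% with 5, in the same direction as the window.

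Each hairpin alone could not reach a p below 0.1 with 3 libraries against 3. The mean was 118 ± 99.3 (SD, n = 3) for shG9a_1, 68.4% below shSCR (two-sided exact permutation p = 0.1), and without replicate 1 it was 175, 53.0% below (exact permutation p = 0.2, the smallest possible). It was 197 ± 44.1 (SD, n = 3) for shG9a_4, 47.0% below (two-sided exact permutation p = 0.1). The 2 hairpins differed by 79.7 peaks (two-sided exact permutation p = 0.4, smallest possible 0.1), and by 22.3 peaks without shG9a_1 replicate 1 (exact permutation p = 0.8, smallest possible 0.2), which passed in neither case. Leaving out any of the 3 shSCR libraries gave p = 0.0714 in the exact permutation test of both hairpins, the smallest then possible. With only the libraries of like depth (shSCR 1 to 3, shG9a_1 replicate 3 and shG9a_4 replicate 2) the difference was -164 peaks with an exact permutation p of 0.2, also the smallest possible. The p-values measure the spread between these libraries; whether the replicates were grown as separate cultures is not stated beyond the word biological.

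As a share of its own list, the window held 1.324%, 1.304% and 1.342% of the peaks in shSCR, 1.544% and 1.324% in shG9a_1 replicates 2 and 3, and 1.415%, 1.404% and 1.463% with shG9a_4. The shares of the 5 shG9a lists overlapped those of shSCR at the low end and reached higher. The mean share was 1.32% ± 0.0190 (SD, n = 3) against 1.43% ± 0.0811 (SD, n = 5), a difference of 0.106 percentage points that did not pass the test (two-sided exact permutation p = 0.107, smallest possible 0.0357). With each list limited to its 11168 best peaks the difference was 0.0191 percentage points (exact permutation p = 0.679). The list of shG9a_1 replicate 1 held 3 window peaks among 113, 2.65%, and was not used for shares.

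The shares of the lists were also taken for each of the 5 segments, and no segment passed after adjustment. The extended segment's share was lower with the hairpins, at 0.0503% ± 0.00893 (SD, n = 5) against 0.0706% ± 0.00626 (SD, n = 3) in shSCR, with the nearest pair of libraries at 0.0627% and 0.0633% (two-sided exact permutation p = 0.0357, 0.0893 adjusted over 5 segments by Benjamini-Hochberg). The share of class I was higher, at 0.225% ± 0.0266 (SD, n = 5) against 0.186% ± 0.00681 (SD, n = 3), also without overlap (exact permutation p = 0.0357, adjusted 0.0893). The smallest p these groups allow is 0.0357. After adjustment over 5 segments, a segment at this floor passes only when nearly all of the segments reach it. The adjusted result was thus close to fixed by group size and does not show that the shares were equal. The class III share was 0.120% against 0.106% and the class II share 0.126% against 0.111% (exact permutation p = 0.321 and adjusted p = 0.321 for each). Beyond the MHC the share was 0.899% ± 0.0341 (SD, n = 5) against 0.846% ± 0.0103 (SD, n = 3) (exact permutation p = 0.0714, adjusted 0.119). The differences of class I and of the extended segment were reversed or smaller with lists of equal length. With each list limited to its 11168 best peaks, that of class I turned to -0.0191 percentage points (exact permutation p = 0.214), and that of the extended segment went from -0.0203 to -0.00836 (exact permutation p = 0.607). At a −log10 q of at least 5 the class I difference was 0.00649 (exact permutation p = 0.893). That of the extended segment was then -0.0205, close to its main value (exact permutation p = 0.0714). At a fold of at least 5 the class I and extended differences were 0.0171 and -0.0172 (exact permutation p = 0.321 and 0.179).

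The mean peak number was lower with the hairpins in each segment, given here without a test. The extended segment had 22, 22 and 15 peaks in shSCR, 0, 6 and 5 with shG9a_1 and 7, 9 and 6 with shG9a_4. Class I had 53, 66 and 38 in shSCR, 0, 31 and 27 with shG9a_1 and 23, 38 and 29 with shG9a_4, so its groups met at 38. Class III had 33, 39 and 19 in shSCR, 0, 15 and 15 with shG9a_1 and 10, 22 and 18 with shG9a_4, and its groups overlapped. For class II the numbers were 32, 35 and 25 in shSCR, 0, 16 and 15 with shG9a_1, and 17, 20 and 14 with shG9a_4, with no overlap. Beyond the MHC they were 253, 290 and 172 in shSCR, 3, 107 and 111 with shG9a_1, and 100, 155 and 120 with shG9a_4, again with no overlap. Without shG9a_1 replicate 1 the mean was lower than in shSCR by 66.4% in the extended segment, 43.4% in class I, 47.3% in class III, 46.5% in class II and 50.2% beyond the MHC, against 53.2% over all chromosomes. The whole lists did not overlap either, with the highest shG9a list at 17454 peaks and the lowest shSCR list at 20118.

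The 192 reproducible regions were then followed through the 6 shG9a libraries. A region was called lost when none of the 6 had a peak there, kept when at least 5 had one, and partial otherwise. In the window 19 were lost (9.90%, Wilson 95% interval 6.43% to 14.9%, against 9.49% over all chromosomes), 75 were kept (39.1%, 32.4% to 46.1%, against 36.9%) and 98 were partial (51.0%, 44.0% to 58.0%, against 53.6%). All 3 shares lay close to the background, and their intervals held it; the intervals cover counting error only. The number of lost regions moved with the lists used, as did the number of reproducible regions. It was 64 of 284 without shSCR replicate 3, the shortest control list, and 30 of 194 without shG9a_4 replicate 2. It was 12 of 154 at a fold of at least 5, and 2 of 93 with lists of equal length. The shares over all chromosomes at these settings were not computed. Without shG9a_1 replicate 1, 114 regions had a peak in at least 4 of the 5 remaining shG9a libraries, and 75 in all 5. By the number of shG9a libraries with a peak, from 0 to 6, the 192 regions divided into 19, 22, 18, 19, 39, 72 and 3. Only 3 regions reached 6, since shG9a_1 replicate 1 called no more than 3 of the 192. At 49 of the 192 no shG9a_1 library had a peak (25.3% over all chromosomes), and at 24 no shG9a_4 library had one (13.5% over all chromosomes). For shG9a_1 this rested in effect on replicates 2 and 3 alone, so the counts of the hairpins are not on equal terms.

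The share of reproducible regions still called differed between libraries. In the window shG9a_1 replicates 1 to 3 called 3, 117 and 121 of the 192 (1.56%, 60.9% and 63.0%, against 0.767%, 57.7% and 64.5% over all chromosomes). The shG9a_4 replicates called 117, 155 and 136 (60.9%, 80.7% and 70.8%, against 58.3%, 77.3% and 66.3%). shG9a_4 replicate 2, the longest of the shG9a lists, called the most in each segment. In the extended segment it called 7 of 11 and the others 0 to 5, with shG9a_1 replicate 3 at 2. In class II it called 13 of 14, and shG9a_1 replicate 2 called 8. Class I ranged from 19 to 27 of 32, class III from 8 to 13 of 16 and 6p21 beyond the MHC from 69 to 94 of 118 in the 5 libraries other than shG9a_1 replicate 1.

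**Figure D3:**
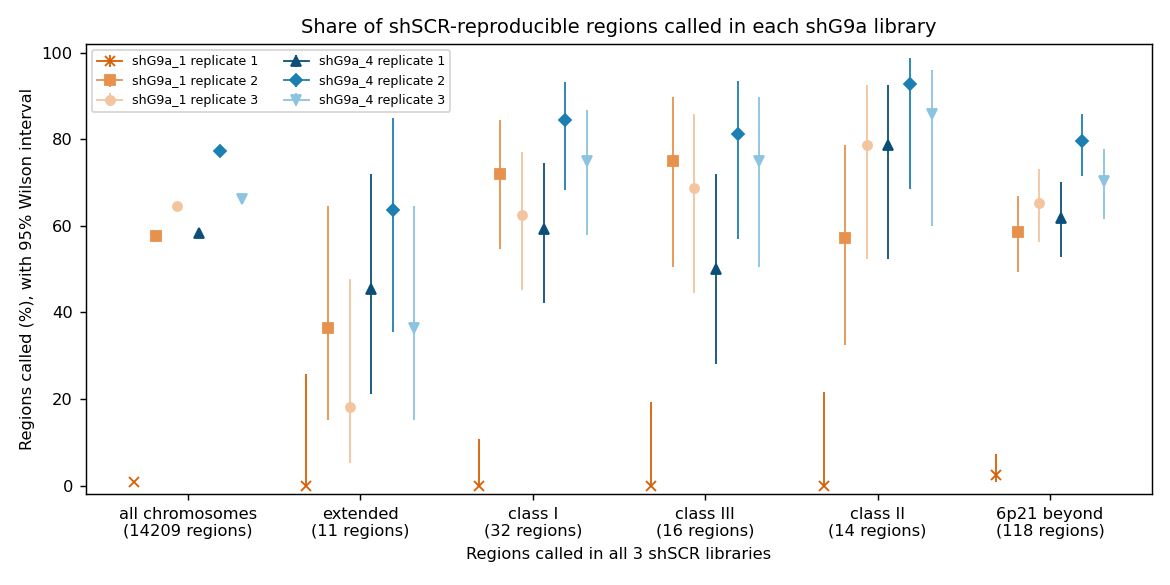
Percent of the regions called in all 3 shSCR libraries that each shG9a library also called (vertical axis), by segment, with Wilson 95% intervals as bars and the number of regions under each segment. shG9a_1 replicate 1 sits at 0 in the 4 MHC segments, the extended segment has the lowest values of the other 5 libraries (18.2% to 63.6%), and the wide bars show how few regions the MHC segments hold.

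Regions that stayed were those that were strong in the control. Strength is the mean percentile of a region's best peak within the 3 shSCR lists, ranked by q. Kept window regions had a median strength of 88.5, a median shSCR fold of 13.9 and a median width of 719 bp. Partial regions stood at 59.0, 7.98 and 475.5 bp, and lost regions at 40.3, 6.26 and 374 bp. The lost and kept groups overlapped only between 42.0, the lowest kept region, and 56.8, the highest lost region. With all reproducible regions cut into 5 strength classes of equal size, from weakest to strongest, 2.78%, 7.69%, 19.4%, 68.4% and 88.4% of the window regions were kept, against 1.72%, 7.60%, 22.2%, 58.0% and 95% of all regions. Lost regions made up 33.3% and 17.9% of the 2 weakest classes (31.5% and 11.9% over all chromosomes) and 0 of the 36, 38 and 43 window regions of the stronger 3. The strength uses the same shSCR lists that make a region reproducible, so these values are a description.

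**Figure D4:**
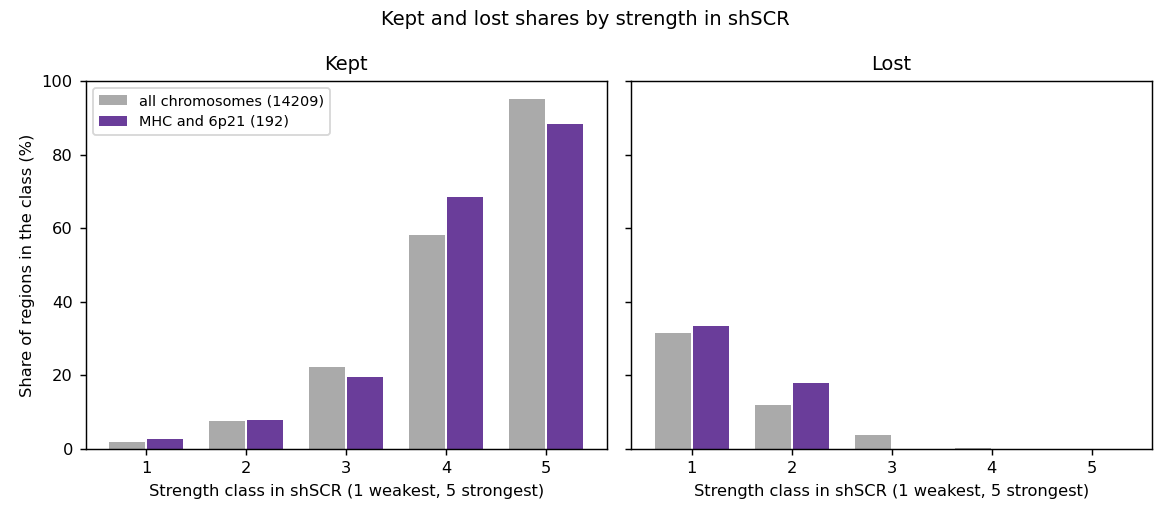
Percent of regions kept (left) and lost (right) in each of 5 strength classes (1 weakest, 5 strongest), for all chromosomes (14209 regions) and for the MHC and 6p21 (192 regions); bars start at 0. The kept share rises from 2.78% to 88.4% in the window, and the lost share is 33.3% and 17.9% in the 2 weakest classes and 0 in the other 3.

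At the 75 kept regions the peaks were lower with the hairpins, which is given as a description without a test. The median fold among the shSCR libraries averaged 13.5 ± 2.22 (SD, n = 3) and was 8.97 ± 1.21 (SD, n = 5) with the hairpins when shG9a_1 replicate 1 is left out, close to 13.5 ± 1.70 and 8.94 ± 1.18 over all kept regions. The mean fold was lower with the hairpins at 74 of the 75 (98.7%, against 96.2% over all chromosomes). At 19 (25.3%, against 27.9%) each of the 5 shG9a libraries lay below each of the 3 shSCR libraries, and at none did all lie above (0.0572% over all chromosomes). The ratio of shG9a to shSCR mean fold had a median of 0.671 and ran from 0.462 to 1.12. In class I the kept regions went from a median of 12.3 ± 1.99 (SD, n = 3) to 7.24 ± 0.496 (SD, n = 5), in class III from 12.7 ± 1.10 to 9.11 ± 1.71, in class II from 15.4 ± 3.34 to 9.97 ± 1.60 and beyond the MHC from 14.8 ± 3.71 to 9.90 ± 1.27. The fold adds 1 to the pileup and to the background, so it depends on depth, and the part of depth in these values was not tested.

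Among reproducible regions, the extended segment had the lowest median shSCR fold and the smallest kept share of the 5 segments. Of its 11 reproducible regions 2 were kept (18.2%, against 36.9% over all chromosomes). Another 7 were partial (63.6%, against 53.6%) and 2 were lost (18.2%, against 9.49%). With so few regions the Wilson intervals were wide and held the shares over all chromosomes. They ran from 5.14% to 47.7% for kept and for lost regions, and from 35.4% to 84.8% for partial regions. The 2 kept regions of the extended segment had a median shSCR fold of 15.5 ± 3.59 (SD, n = 3). Its strongest site by shSCR mean fold was also its widest, chr6:28890872-28892112 (1241 bp), with folds of 16.3, 25.5 and 9.33 in shSCR, 12.4 and 14.0 in shG9a_1 replicates 2 and 3, and 10.0, 16.2 and 10.8 with shG9a_4. Its groups overlapped, with shSCR replicate 3 the lowest library of all. At chr6:28641538-28641916 the folds were 14.0, 12.9 and 14.8 in shSCR, 5.85 and 5.33 with shG9a_1, and 6.98, 8.35 and 8.30 with shG9a_4, so every shG9a library was well below every shSCR library. The third of its strongest sites, chr6:28726028-28726355, was partial: 16.6, 9.68 and 14.0 in shSCR, 5.35 in shG9a_1 replicate 2, no peak in shG9a_1 replicate 3, and 6.69, 8.13 and 4.76 with shG9a_4. The groups were again apart. The stronger of its lost regions was chr6:28763627-28763917, with a shSCR mean fold of 6.26 ± 1.11 (SD, n = 3). No region of the extended segment, nor of the MHC as a whole, was called in every library.

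In class I, 13 of the 32 reproducible regions were kept (40.6%, against 36.9% over all chromosomes). Class I had 18 partial regions and 1 lost region (3.125% of the 32, against 9.49%). A pair of its strongest sites lay close together. At chr6:30524646-30525364 the folds were 13.8, 22.5 and 18.2 in shSCR, 9.82 and 7.82 in shG9a_1 replicates 2 and 3, and 7.50, 14.5 and 14.3 with shG9a_4. At chr6:30538863-30539563 they were 21.4, 24.4 and 13.8 in shSCR, 13.0 and 10.6 with shG9a_1, and 7.22, 19.6 and 8.95 with shG9a_4. At both sites 1 or more shG9a_4 libraries lay above the lowest shSCR library, while both shG9a_1 libraries stayed below it. The third, chr6:30712077-30712733, lay in the densest 100 kb of the window and had 19.2, 14.0 and 15.6 in shSCR, 7.82 and 6.73 with shG9a_1, and 6.52, 10.9 and 10.7 with shG9a_4, with the groups apart.

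The widest class I region, chr6:30293579-30294986 (1408 bp), had 14.7, 18.7 and 12.0 in shSCR, 4.17 and 8.10 with shG9a_1, and 5.63, 6.83 and 10.2 with shG9a_4. Its groups did not overlap. The only lost region of class I, chr6:30684846-30685151, also lay in the densest 100 kb, with folds of 5.02, 9.97 and 7.93 in shSCR. The longest stretch of class I without a reproducible region was chr6:29721130-30028797 (308 kb), in which 8 regions called in fewer libraries lay.

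In class III, 8 of the 16 reproducible regions were kept (50%, against 36.9% over all chromosomes). Class III had 7 partial regions and 1 lost region (6.25% of the 16, against 9.49%). Its strongest site, chr6:31763157-31763959, was in the densest stretch of the segment and had folds of 19.4, 32.5 and 28.1 in shSCR, 11.5 and 25.2 in shG9a_1 replicates 2 and 3, and 18.7, 27.5 and 20.0 with shG9a_4. The groups overlapped widely. At chr6:31588156-31589163 the folds were 15.5, 15.4 and 20.7 in shSCR, 8.83 and 16.8 with shG9a_1, and 9.47, 8.90 and 10.0 with shG9a_4. Only shG9a_1 replicate 3 reached the shSCR range there. At chr6:31707632-31708167 they were 17.3, 15.2 and 12.7 in shSCR, 7.17 and 8.60 with shG9a_1, and 7.42, 14.1 and 5.61 with shG9a_4. Here shG9a_4 replicate 2 alone was within the shSCR range. The widest region, chr6:31869333-31870456 (1124 bp), had a shSCR mean fold of 12.0 ± 6.05 (SD, n = 3) and 7.60 ± 2.26 (SD, n = 5) with the hairpins, and the lost region, chr6:31633466-31634062, had 9.74, 7.29 and 5.27 in shSCR.

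Class II held the strongest sites of the MHC, and 7 of its 14 reproducible regions were kept (50%, against 36.9% over all chromosomes). It had 6 partial regions and 1 lost region (7.14% of the 14, against 9.49%). The widest region of the segment and of all those named here, chr6:32935947-32938911 (2965 bp), had folds of 34.9, 31.4 and 23.8 in shSCR, 23.0 and 28.7 in shG9a_1 replicates 2 and 3, and 19.0, 36.2 and 14.5 with shG9a_4. The highest library at this site was shG9a_4 replicate 2. At chr6:33239596-33240389 the folds were 19.9, 41.3 and 28.2 in shSCR, 22.7 and 19.9 with shG9a_1, and 15.8, 27.9 and 15.8 with shG9a_4. At chr6:33393279-33394016 they were 14.8, 18.0 and 15.6 in shSCR, 12.1 and 6.04 with shG9a_1, and 7.96, 18.3 and 9.62 with shG9a_4. At these 3 sites the groups overlapped, and shG9a_4 replicate 2 was the highest shG9a library at each. The lost region, chr6:33267063-33267869, had 7.60, 5.37 and 4.38 in shSCR.

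6p21 beyond the MHC had 14 of the window's 19 lost regions (11.9% of its 118, against 9.49% over all chromosomes). Another 45 were kept (38.1%, against 36.9%) and 59 were partial. The segment also held the strongest region of the window. The strongest, chr6:43738842-43739979, had folds of 25.6, 46.3 and 52.5 in shSCR, 23.5 and 25.8 in shG9a_1 replicates 2 and 3, and 16.9, 35.1 and 33.8 with shG9a_4. It was well above background in all 8 libraries, and the groups overlapped through shSCR replicate 1. At chr6:44213957-44215779 the folds were 21.9, 38.3 and 26.4 in shSCR, 22.1 and 26.6 with shG9a_1, and 18.5, 21.9 and 12.8 with shG9a_4, with the groups overlapping. The widest region of the segment, chr6:35695046-35697044 (1999 bp), had 26.4, 22.8 and 29.2 in shSCR, 18.3 and 13.1 with shG9a_1, and 15.6, 16.4 and 13.6 with shG9a_4. It was the only 1 of these 3 at which every shG9a library lay below every shSCR library.

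3 regions, all beyond the MHC, were called in every library, the list of shG9a_1 replicate 1 included. The strongest was chr6:35435816-35437017, with folds of 30.4, 23.0 and 25.0 in shSCR, 5.45, 21.7 and 25.2 with shG9a_1, and 24.3, 31.7 and 16.8 with shG9a_4. Apart from shG9a_1 replicate 1, its groups overlapped. The others were chr6:42847167-42848011, with 8.82 in shG9a_1 replicate 1, and chr6:43196700-43197480, with 7.93. All 3 had a shSCR strength of at least 96.7. The lost region of highest strength percentile in the window (56.8) was chr6:43771753-43772146, with folds of 9.53, 6.34 and 6.06 in shSCR (mean 7.31); the highest mean fold of a lost region was 8.04. It had no peak with either hairpin, and it lay in the same 1 Mb bin as the strongest region.

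**Figure D5:**
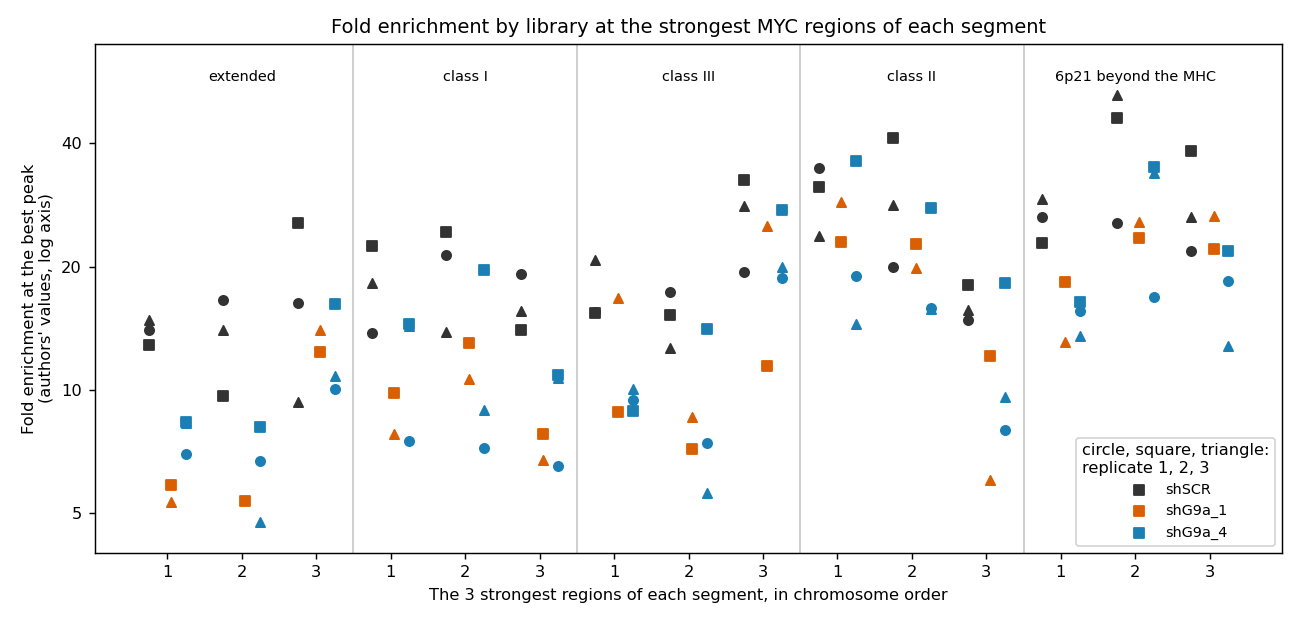
Fold enrichment at the best peak (log axis) in each library for the 3 strongest regions of each segment, in chromosome order, with circles, squares and triangles for replicates 1, 2 and 3; a library with no peak there has no symbol. The groups are apart at the first 2 regions of the extended segment, the third of class I and the first beyond the MHC, and overlap at the others. The second extended region is partial, with no peak in shG9a_1 replicate 3. With shG9a_1 replicate 1 left out, every shG9a library lay below every shSCR library at 27.9% of kept regions over all chromosomes.

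No region of the window was gained, that is, absent from all shSCR lists and called in at least 2 libraries of each hairpin; over all chromosomes 4 of 43222 were (0.00925%). Given the short list of shG9a_1 replicate 1, a gain in effect needed a peak in both shG9a_1 replicates 2 and 3. So strict a rule could hardly find a gain in the window, and finding none does not set the window apart. Called in no shSCR library at all were 37 window regions (6.39%, against 4.55% of all merged regions), of which 36 came from 1 library and 1 from both hairpins. The share was 14% of the 50 class II regions (7), 7.84% in class III (4), 7.23% in class I (6), 5.22% beyond the MHC (19) and 3.33% in the extended segment (1). These peaks were low, with a median fold of 5.40 and a range from 3.72 to 7.37.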

How the data were processed

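MYC ChIP-seq was measured in 9 libraries (3 each of shSCR, shG9a_1 and shG9a_4); the 9 input libraries had no peak list here. Per the submitters' processing notes, MACS2 2.1.0 was used, along with Picard 2.7.1, SAMtools 1.3 and STAR 2.5.2a, on the build hg19, with no settings given there. Each deposited list, 1 per library, holds the authors' score (10 times −log10 q), fold enrichment ratio over background, −log10 p and −log10 q, and the summit offset; the highest listed q was 0.0499. Of 151062 peaks, 192 on other sequences were left out. Peaks were merged at an overlap of at least 1 bp over chromosomes 1 to 22 and X. A whole-number pileup was recovered from fold and p for all but 4 peaks (tolerance 0.001 on −log10 p) and used only for the relative depth check. Differences between library values were judged at 0.05 by exact permutation, two-sided. Wilson 95% intervals beside shares express counting error alone.

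The regions named were, in each segment, the 3 strongest called in all 3 shSCR libraries, the strongest lost, the strongest called in every library and the widest, and in the window every gained region, the longest gap and the densest 100 kb. The window, the segments, the rules and the tests were chosen with earlier results of these data known. Segment shares of the lists were added after the values were seen. Alternatives were stricter q and fold limits (5 each), lists of equal length, other merging (summits within 250 bp, overlap of 50 bp), peak middles for summits, covered length and leaving out each library. Scripts were tested on simulated data and used Python 3.11.15, NumPy 2.4.6, pandas 2.3.3, SciPy 1.17.1 and Matplotlib 3.10.9. Sequences came from RefSeq (GRCh38.p14).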

Additional observations from a re-analysis of the deposited data

Results flagged for a closer look

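In 21 groups of libraries looked at for a value standing apart (Dixon's test at the 95% level), 5 were marked, where chance marks about 1 in 20. 4 of the 5 are the same library, shG9a_1 replicate 1, whose whole list holds 113 peaks. It had 3 peaks in the window against 158 to 245 in the other shG9a libraries, 0 in the MHC against 58 to 90, 0 in class II against 14 to 20, and 3 beyond the MHC against 100 to 155. The cause of its short list was not tested. The fifth is the class I share of the list in shG9a_1 replicate 2, 0.270%, against 0.206% to 0.224% in the other 4 shG9a libraries; without it the class I difference from shSCR was 0.0282 percentage points in place of 0.0395.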

How the results depend on the processing

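Of 172 recomputed values, 129 kept their direction and side of the threshold or moved little, 29 lost their call, 1 gained one, 9 counts moved by over 1.5 times and 4 changed sign. Group size fixed many of these labels. For each hairpin alone the smallest possible permutation p was 0.1 to 0.25, so no setting could pass. With a replicate block or 1 library left out, the shares had a smallest possible permutation p of 0.0571 to 0.111. These totals therefore do not measure how firm the results are. The difference in window peaks with both hairpins stayed negative throughout but missed the threshold in 5 settings in which the smallest possible p is above it. With a replicate block it was -215 with a permutation p of 0.0741, with libraries of like depth it was -164 (exact permutation p = 0.2), and without shSCR replicate 1, 2 or 3 it was -204, -175 or -266.5 (exact permutation p = 0.0714 each). With 1 library left out at a time, the difference ran from -266.5 to -175 peaks (both hairpins together), from -306 to -198 with shG9a_1 alone and from -227 to -135 with shG9a_4 alone; the window's share differed by 0.0778 to 0.133 percentage points. That share differed by 0.0191 with lists of equal length, 0.0291 at −log10 q of at least 5 and 0.311 with all 9 libraries (exact permutation p = 0.679, 0.571 and 0.0714).

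The replicate numbers were not read as pairs in the main tests. Deviations from the group mean correlated at -0.0593 to 0.164 between same-numbered libraries (median 0.0416). Between other libraries they correlated at -0.138 to 0.111 (median -0.0213). The deviations of a group sum to nothing, so these correlations depend on each other. Whether same-numbered libraries shared a batch was not tested.

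The 192 reproducible regions became 93 with lists of equal length (11168 peaks), 308 when 2 of 3 shSCR libraries sufficed and 192 to 284 with 1 library left out. The 19 lost regions of 192 became 12 of 154 at a fold of at least 5 and 2 of 93 with lists of equal length. With 1 library left out they ran from 19 to 64, with 64 of 284 without shSCR replicate 3 and 30 of 194 without shG9a_4 replicate 2. The 75 kept regions became 54 at −log10 q of at least 5, 56 at a fold of at least 5 and 70 with summits joined within 250 bp, and 74 to 114 with 1 library left out, 114 without shG9a_1 replicate 1, when 4 of 5 libraries suffice. Gained regions numbered 0 to 1, with 1 at equal list length and 1 without shSCR replicate 2.

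Of the segment shares, class I turned to -0.0191 percentage points with lists of equal length, class III to -0.00569 and class II to -0.00585 with all 9 libraries, and 6p21 beyond the MHC to -0.00553 at −log10 q of at least 5, while with all 9 libraries it was 0.346 (exact permutation p = 0.0476). The extended segment's share differed by -0.00836 with lists of equal length (exact permutation p = 0.607). At −log10 q of at least 5 it differed by -0.0205 (exact permutation p = 0.0714). Causes were not tested. Depth per library is only estimated here. How far it sets peak numbers cannot be told apart from the hairpins for shG9a_1 replicates 1 and 2 and shG9a_4 replicates 1 and 3. The estimate for shG9a_1 replicate 2, 0.839, lay below the shSCR range of 0.926 to 1.04.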
